A study of Homo sapiens with 6 samples.

Results

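Ribosome biogenesis and MYC-driven nucleolar genes were examined in FaDu cells given the compound BB608 or its vehicle DMSO. The set holds 31 genes, chosen by name, of the 20660 gene names in the authors' deposited table, and all 31 were found there. Total RNA depleted of ribosomal RNA was sequenced from 3 BB608 libraries and 3 DMSO libraries. FaDu is a long-established human line grown from a hypopharyngeal squamous carcinoma. The labels name BB608 only by its code, and neither a dose nor a treatment time is stated in the labels. Both groups come from the same line, so the replicates do not sample different patients. The deposited group names call each group a subset, and whether every library entered the authors' comparison is not stated.

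Ribosomes are built in the nucleolus, where RNA polymerase I transcribes the ribosomal RNA precursor and many assembly factors fold, modify and cut it around the incoming ribosomal proteins. Small nucleolar ribonucleoproteins (snoRNPs) guide methylation and pseudouridylation of the precursor, the small-subunit processome forms the precursor of the small subunit, and a further set of factors matures the large subunit. The transcription factor MYC is known to drive most of these genes together with enzymes of polyamine and pyrimidine synthesis, and large nucleoli are a common trait of carcinoma cells.

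MYC binds the E-box CACGTG, a motif that is its own reverse complement. It was searched in RefSeq promoter windows of 300 bases, 250 before and 50 after a gene's start, on build GRCh38.p14. Of 26 members matched to at least 1 window, 13 held the motif, against 8.77% of all 27305 genes with a window. Of 8051 genes that were expressed here and had a window, 13.0% held it. The stretches below belong to ODC1 and SRM, 2 enzymes of polyamine synthesis with opposite directions in these data, and to UTP20, a processome subunit. Each shows 60 bases that end before the start and hold no annotated exon of the gene, read 5′ to 3′ on the gene's strand, with the E-box in capitals.
ODC1, chr2:10448013-10448072, minus strand: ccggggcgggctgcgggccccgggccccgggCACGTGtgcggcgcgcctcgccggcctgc
SRM, chr1:11060185-11060244, minus strand: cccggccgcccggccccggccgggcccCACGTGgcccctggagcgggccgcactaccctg
UTP20, chr12:101280045-101280104, plus strand: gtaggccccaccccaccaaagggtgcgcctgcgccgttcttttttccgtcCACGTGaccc
The first base of the motif lies 29 bases before the start in ODC1, 199 in SRM and 10 in UTP20. A match describes these letters and does not show that MYC binds there.

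The values are FPKM per coding sequence, which are fragment counts scaled for transcript length and library size, with 1 value per group that the authors pooled over its libraries. No value per library was analysed here, so sequencing depth is unknown and the spread between replicates enters only through the authors' test. Values of all coding sequences of a gene were added to a gene sum. A coding sequence counted as changed where the authors' Cuffdiff q was under 0.05. An implied SE of the log2 fold of BB608 over DMSO was derived from the authors' statistic and p, and approximate 95% intervals rest on it. The squamous identity of the cells showed in KRT5, a basal keratin, at 2472 FPKM in BB608 and 2334 FPKM in DMSO cells. TP63, the basal epithelial transcription factor, had 35.3 FPKM in BB608 and 32.1 FPKM in DMSO cells. The leukocyte marker PTPRC had 0.00130 FPKM in BB608 and 0.00650 FPKM in DMSO cells, and CD3E and HBB were listed at 0 in both. The endothelial cadherin gene CDH5 had 4.09 FPKM in BB608 and 3.82 FPKM in DMSO cells. The endothelial marker VWF had only 0.0696 FPKM in BB608 and 0.0595 FPKM in DMSO cells, and PECAM1 had no value. The fibroblast marker COL1A1 had 0.690 FPKM in BB608 and 0.541 FPKM in DMSO cells, and COL1A2 and PDGFRB were lower still.

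With BB608, no member changed by the authors' test, and no gene sum differed by 0.5 log2 or more. The 31 members have 134 coding sequences, of which 100 were tested. The authors' deposited table called 0 of these 100 at a Cuffdiff q under 0.05, beside 0.354% of all 34474 tested coding sequences, so a count of 0 is close to the background. The lowest q of any member in the authors' deposited table was 0.436. An unadjusted p under 0.05 was found in 5 of the 100, or 5%, against 3.31% of all tested coding sequences. These were 3 higher sequences, of SRM, CAD and GRWD1, against a background of 1.8%, and 2 lower ones, of ODC1 and NOP2, against 1.51%. The 34 untested coding sequences of members reached at most 0.543 FPKM in either group.

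The gene sums of 19 members were higher in BB608 and those of 12 were lower. That is 61.3% higher, against 57.6% of the 10859 kept genes, which are genes with a tested coding sequence whose sum reached 1 FPKM in at least 1 group. All 31 members passed this filter. The median log2 fold of the member gene sums was 0.06, against 0.03 over all kept genes, and the SD over members was 0.17. The extremes were -0.30 for ODC1 and 0.43 for CAD. Among all kept genes 11.6% lay 0.5 log2 or more from 0, but many of these are scarce. Among 5423 kept genes with at least 11.1 FPKM in both groups, the lowest member level, 95 did, or 1.75%, and the SD of their log2 folds was 0.18. The members were therefore spread about as widely as the genes above this floor, which were not otherwise matched to them in abundance.

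**Figure D1:**
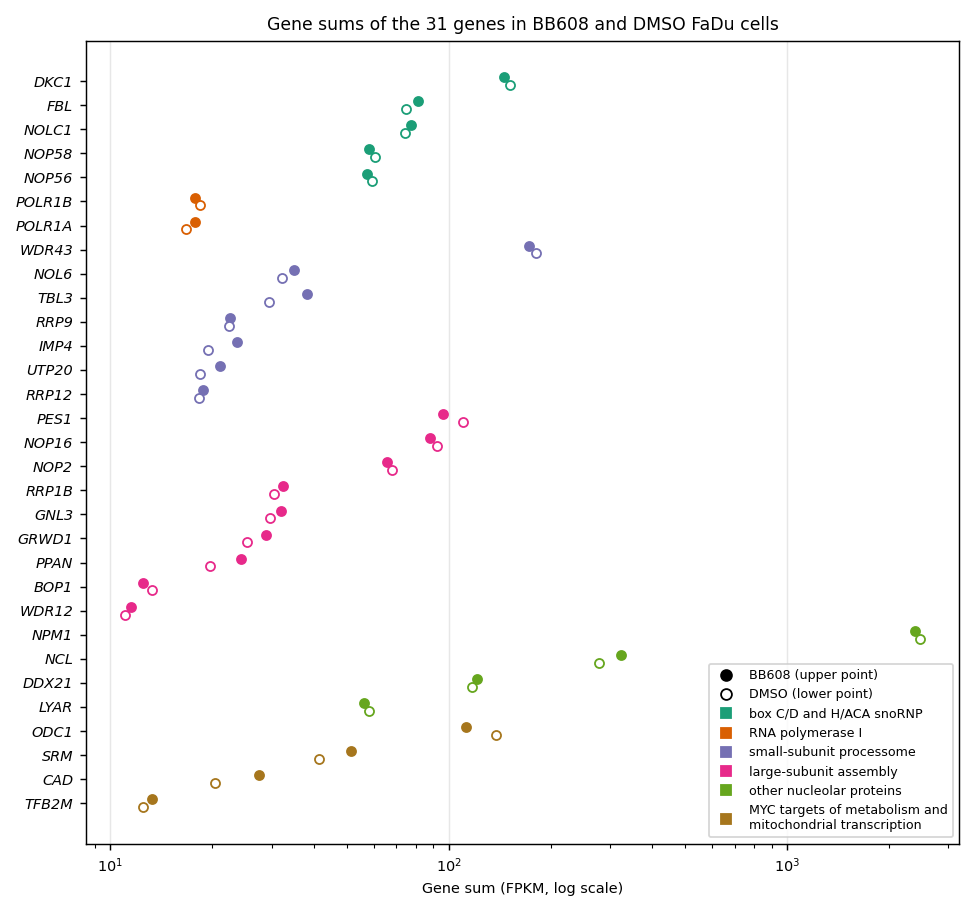
Gene sums in FPKM (log scale) of each member, grouped by role, with BB608 as the filled upper point and DMSO as the open lower point; each is 1 pooled value with no error. The pairs lie close together, from WDR12 at 11.5 FPKM in BB608 and 11.1 FPKM in DMSO cells to NPM1 at 2382 FPKM in BB608 and 2467 FPKM in DMSO cells.

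**Figure D2:**
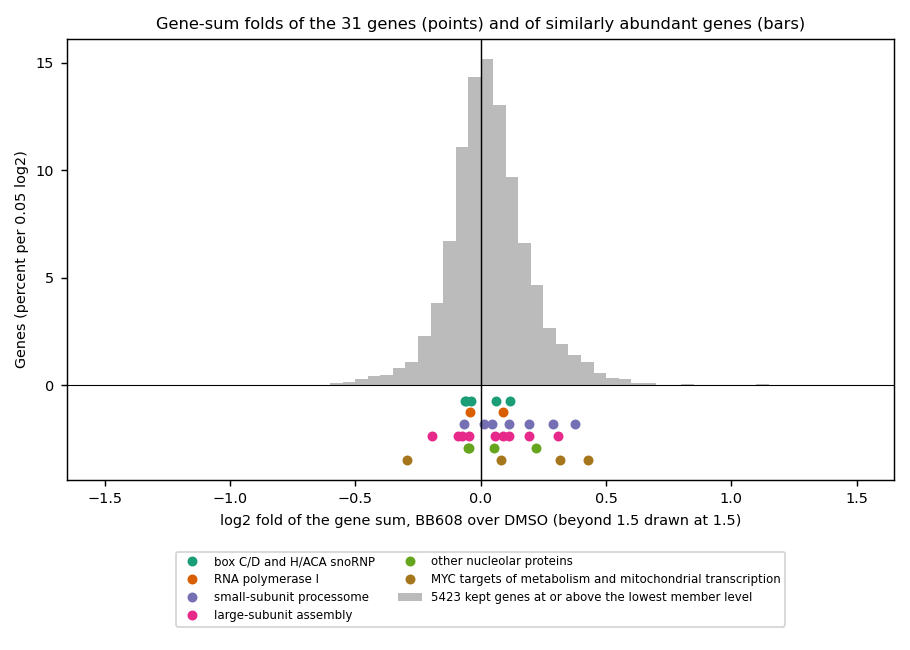
Log2 folds of gene sums, BB608 over DMSO, for the 31 members (points, a row per role) and for 5423 kept genes of at least 11.1 FPKM in both groups (bars, percent of genes). The members lie between -0.30 for ODC1 and 0.43 for CAD, beside an SD of 0.18 for the genes in the bars.

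The box C/D snoRNP, which methylates ribosomal RNA, was represented by its methyltransferase FBL and its paired scaffold proteins NOP56 and NOP58. FBL had a gene sum of 81.0 FPKM in BB608 and 74.6 FPKM in DMSO cells, a log2 fold of 0.12. NOP56 had 57.6 FPKM in BB608 and 59.2 FPKM in DMSO cells, a log2 fold of -0.04, and NOP58 had 58.3 FPKM in BB608 and 60.7 FPKM in DMSO cells, a log2 fold of -0.06. The scaffold pair thus stood at nearly equal levels per length in both groups. DKC1, the pseudouridine synthase of the box H/ACA snoRNP, had 145.7 FPKM in BB608 and 152.3 FPKM in DMSO cells. By the most abundant coding sequence NOP58 and DKC1 were instead higher, with log2 folds of 0.07 (implied SE 0.12) and 0.08 (implied SE 0.15). That of NOP56 was lower, at -0.32 (implied SE 0.57). NOLC1, a chaperone of snoRNPs, had 77.5 FPKM in BB608 and 74.1 FPKM in DMSO cells. In the authors' deposited table, none of the 16 tested coding sequences of these 5 genes had a p under 0.05. As 3.31% of all tested coding sequences had one, a count of 0 is close to the background.

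RNA polymerase I was represented by its 2 largest subunits. POLR1A had 17.8 FPKM in BB608 and 16.7 FPKM in DMSO cells, a log2 fold of 0.09, and POLR1B had 17.8 FPKM in BB608 and 18.4 FPKM in DMSO cells, a log2 fold of -0.04. The most abundant coding sequence of POLR1A had a log2 fold of 0.23 with p 0.0973 and q 0.997 in the authors' deposited table (implied SE 0.14), and that of POLR1B had -0.25 (implied SE 0.28).

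In the small-subunit processome, 6 of 7 members had higher gene sums in BB608, with a median log2 fold of 0.11, beside 57.6% higher among all kept genes. Of 40 kept genes in a list of other processome and pre-40S factors, 26 were higher, or 65%, with a median of 0.03. No coding sequence among the 20 tested for the members passed the test, beside 0.354% of all tested coding sequences, so 0 is close to the background. TBL3, a WD-repeat subunit, had 38.1 FPKM in BB608 and 29.4 FPKM in DMSO cells, a log2 fold of 0.37. Its most precise tested coding sequence had 16.4 FPKM in BB608 and 13.4 FPKM in DMSO cells, with p 0.0502 and q 0.997 in the authors' deposited table. IMP4, which helps pair the small nucleolar RNA U3 with the precursor, had 23.7 FPKM in BB608 and 19.4 FPKM in DMSO cells. The most abundant coding sequence of IMP4 had 8.06 FPKM in BB608 and 7.98 FPKM in DMSO cells, a log2 fold of 0.01 (implied SE 0.69). UTP20, a large scaffold protein with 1 coding sequence in the table, had 21.1 FPKM in BB608 and 18.5 FPKM in DMSO cells, a log2 fold of 0.19 with p 0.0731 and q 0.997 in the authors' deposited table (implied SE 0.11). None of the most abundant coding sequences in this group lay 2 implied SEs or more from 0. NOL6 had 34.8 FPKM in BB608 and 32.2 FPKM in DMSO cells. RRP12, an export factor of the small subunit, had 18.8 FPKM in BB608 and 18.3 FPKM in DMSO cells. RRP9, a protein of the U3 particle, had 22.6 FPKM in BB608 and 22.4 FPKM in DMSO cells. WDR43, the only member of this group with a lower gene sum, had 172.8 FPKM in BB608 and 181.0 FPKM in DMSO cells. By the most abundant coding sequence WDR43 had a log2 fold of 0.04 (implied SE 0.30) and RRP12 had -0.05 (implied SE 0.15).

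Among factors of large-subunit assembly, 5 of 9 members were higher and 4 lower. PES1, BOP1 and WDR12 form one complex in the nucleolus. PES1 had 96.4 FPKM in BB608 and 110.3 FPKM in DMSO cells, a log2 fold of -0.19, BOP1 had 12.5 FPKM in BB608 and 13.3 FPKM in DMSO cells, a log2 fold of -0.09, and WDR12 had 11.5 FPKM in BB608 and 11.1 FPKM in DMSO cells, a log2 fold of 0.06. The direction of PES1 depended on the coding sequence: its most abundant one was higher in BB608, at 43.8 FPKM against 37.8 FPKM in DMSO cells (log2 fold 0.21, implied SE 0.21), while the next 3 were lower. NOP2, an RNA methyltransferase, had 65.7 FPKM in BB608 and 67.9 FPKM in DMSO cells. It had 9 tested coding sequences, and 1 of them had 6.51 FPKM in BB608 and 12.5 FPKM in DMSO cells, a log2 fold of -0.94 with p 0.0412 and q 0.997 in the authors' deposited table (implied SE 0.42). Its most abundant one had 36.5 FPKM in BB608 and 34.0 FPKM in DMSO cells. NOP16 had 88.0 FPKM in BB608 and 92.6 FPKM in DMSO cells.

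The other members of that group were higher. GRWD1, a chaperone of a large-subunit ribosomal protein, had 28.9 FPKM in BB608 and 25.3 FPKM in DMSO cells. Its less abundant coding sequence, at 6.01 FPKM in BB608 and 3.76 FPKM in DMSO cells, had a log2 fold of 0.68 with p 0.0241 and q 0.997 in the authors' deposited table (implied SE 0.29), while the more abundant one had 0.09. PPAN had 24.4 FPKM in BB608 and 19.7 FPKM in DMSO cells, a log2 fold of 0.31 that rests on 6 tested coding sequences of low abundance. GNL3, the nucleolar GTP-binding protein nucleostemin, had 32.0 FPKM in BB608 and 29.6 FPKM in DMSO cells. RRP1B had 32.5 FPKM in BB608 and 30.5 FPKM in DMSO cells. The single coding sequence of RRP1B had a log2 fold of 0.09 with an implied SE of 0.09, the lowest SE among the members.

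Of the other nucleolar proteins, NPM1, the histone and ribosomal protein chaperone nucleophosmin, had 2382 FPKM in BB608 and 2467 FPKM in DMSO cells. This is 55.8% of the summed FPKM of all members in BB608 and 57.2% in DMSO cells. The reference annotation names 45 pseudogenes of NPM1, so reads of this gene can be shared with copies and its level is uncertain. NCL, the RNA-binding protein nucleolin, had 323.5 FPKM in BB608 and 277.5 FPKM in DMSO cells, a log2 fold of 0.22, and its 6 tested coding sequences were each higher in BB608. The most abundant of them had a log2 fold of 0.35 with p 0.353 and q 0.997 in the authors' deposited table (implied SE 0.37). DDX21, an RNA helicase of the nucleolus, had 121.5 FPKM in BB608 and 117.2 FPKM in DMSO cells. LYAR had 56.2 FPKM in BB608 and 58.0 FPKM in DMSO cells. Summed over all 31 genes the values were 4268 FPKM in BB608 and 4309 FPKM in DMSO cells, and without NPM1 they were 1885 FPKM in BB608 and 1842 FPKM in DMSO cells.

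The members with the widest spread were MYC targets outside ribosome assembly. ODC1, ornithine decarboxylase, the rate-limiting enzyme of polyamine synthesis, had 112.4 FPKM in BB608 and 138.0 FPKM in DMSO cells. Its only tested coding sequence had a log2 fold of -0.30 with p 0.00305 and q 0.436 in the authors' deposited table (implied SE 0.10). SRM, spermidine synthase, acts downstream of ODC1 and lay in the other direction, at 51.6 FPKM in BB608 and 41.4 FPKM in DMSO cells. One of its 2 abundant coding sequences had 26.3 FPKM in BB608 and 20.1 FPKM in DMSO cells, a log2 fold of 0.39 with p 0.00565 and q 0.663 in the authors' deposited table (implied SE 0.14). The other had 24.2 FPKM in BB608 and 20.5 FPKM in DMSO cells, a log2 fold of 0.24 (implied SE 0.43). CAD, the enzyme that opens pyrimidine synthesis, had a gene sum of 27.4 FPKM in BB608 and 20.4 FPKM in DMSO cells, a log2 fold of 0.43. Its main coding sequence had 24.5 FPKM in BB608 and 20.4 FPKM in DMSO cells, a log2 fold of 0.27 with p 0.00675 and q 0.743 in the authors' deposited table (implied SE 0.10). The rest of the CAD sum came from 2 coding sequences at 1.55 and 1.39 FPKM in BB608 that were below 0.001 FPKM in DMSO cells and to which the authors' deposited table gives p-values of 0.303 and 0.328. TFB2M, a factor of mitochondrial transcription, had 13.2 FPKM in BB608 and 12.5 FPKM in DMSO cells. Its 2 coding sequences lay in opposite directions, at 9.13 FPKM in BB608 and 5.88 FPKM in DMSO cells (log2 fold 0.64, implied SE 0.34) and at 4.12 FPKM in BB608 and 6.64 FPKM in DMSO cells (log2 fold -0.69, implied SE 0.59).

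**Figure D3:**
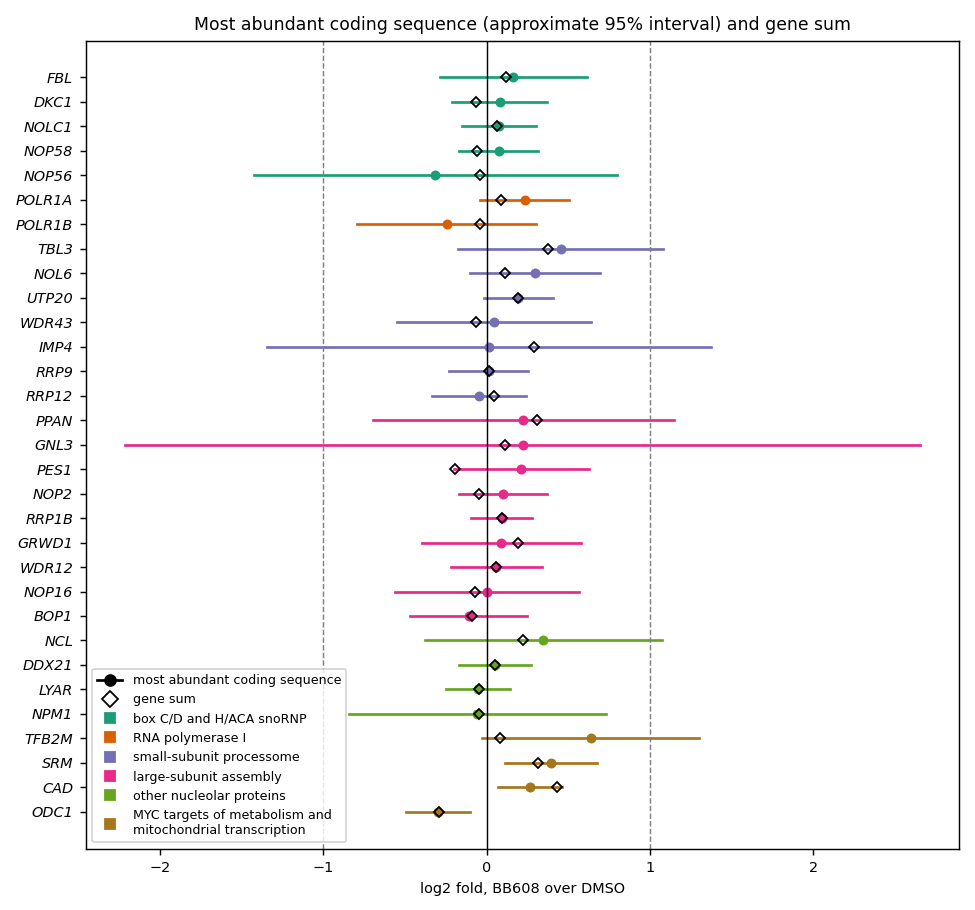
Log2 fold, BB608 over DMSO, of the most abundant tested coding sequence of each member (filled points, with the approximate 95% interval from the implied SE) and of its gene sum (open diamonds, no error); dashed lines mark 1 log2 either way. The intervals of 24 members stay between the dashed lines, and those of ODC1, SRM and CAD leave out 0.

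How firmly a level can be read differed between members. The implied SE of the most abundant coding sequence had a median of 0.18 and ran from 0.09 for RRP1B to 1.24 for GNL3. For 24 members the approximate interval of that sequence lay within 1 log2 of 0, and for 14 within 0.5 log2. For the other 7, NOP56, TBL3, IMP4, PPAN, GNL3, NCL and TFB2M, it reached 1 log2 or beyond, so a missed threshold does not show that these sequences stayed level. The intervals of ODC1, SRM and CAD left out 0, but they are not adjusted for the number of sequences and none of the 3 passed the q threshold. By the most abundant coding sequence 24 of 31 members were higher in BB608, or 77.4%, against 55.2% of kept genes and 54.5% of those at least as abundant as the lowest member. By gene sums the share of 61.3% lay closer to its background of 57.6%.

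**Figure D4:**
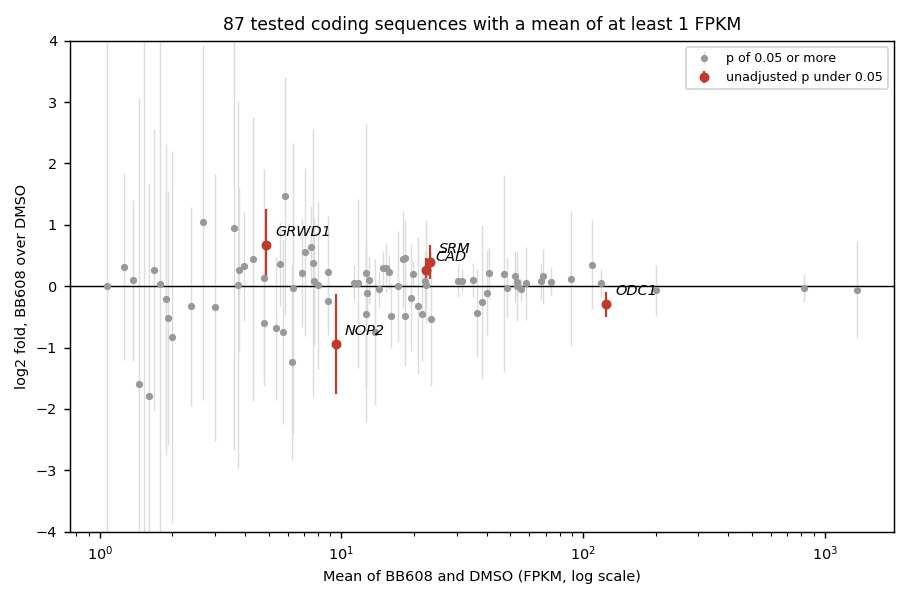
Log2 fold, BB608 over DMSO, against the mean FPKM of both groups (log scale) for 87 tested coding sequences of members with a mean of at least 1 FPKM; bars are approximate 95% intervals, 6 of which run past the axis. Coloured points mark the 5 sequences with an unadjusted p under 0.05, which are of SRM, CAD, GRWD1, NOP2 and ODC1.

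Within genes the coding sequences often disagreed in direction. Of 23 members with several tested coding sequences of at least 1 FPKM on average, 17 had some higher and some lower in BB608. Members with 1 tested coding sequence had a median implied SE of 0.11 for it, against 0.24 for the most abundant sequence of the other 24 members.

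Position and host status were compared as further traits of the members. In GENCODE release 29, 8 members hold small nucleolar or Cajal body RNA genes on their own strand, namely ODC1, WDR43, DKC1, NOP58, NOP56, GNL3, NCL and PPAN. Of these hosts 3 were higher and 5 lower in BB608, with a median log2 fold of gene sums of -0.05. Of the 23 members without such a gene 16 were higher and 7 lower, with a median of 0.06. These directions depended on the measure. By the most abundant coding sequence the hosts WDR43, DKC1 and NOP58 were higher in BB608, with log2 folds of 0.04, 0.08 and 0.07. Of the members without such a gene, NOP16, NOP2 and PES1 also turned higher by that measure, and RRP12 turned lower. These are descriptions of a few genes and the difference was not tested. Of the 13 members with an E-box in a promoter window 8 were higher and 5 lower, with a median log2 fold of 0.05. The 13 matched members without the motif also split into 8 higher and 5 lower, with a median of 0.08.

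In the deposited table GRWD1, PPAN and TBL3 share a locus identifier with other gene names, and reads may be divided between them. CYTH2, beside GRWD1, had 10.6 FPKM in BB608 and 10.2 FPKM in DMSO cells. CTC-273B12.7, at the same locus, had 1.04 FPKM in BB608 and 3.12 FPKM in DMSO cells, a log2 fold of -1.59 with p 0.416 and q 0.997 in the authors' deposited table, while the less abundant coding sequence of GRWD1 was higher in BB608. The read-through name PPAN-P2RY11 was under 0.2 FPKM in both. Leaving these 3 members out, 16 of 28 were higher, with a median log2 fold of 0.05. A further 8 members, PES1, BOP1, NOP16, NOP56, RRP12, WDR12, GNL3 and IMP4, have a locus identifier of their own but a deposited locus range that holds other gene names. Leaving all 11 out, 12 of 20 were higher, with a median of 0.06. As written in the deposited table for hg19, ODC1 lies on chromosome 2 from 10579952 to 10588630, SRM on chromosome 1 from 11114634 to 11120081 and CAD on chromosome 2 from 27440257 to 27467628.

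No gene of the other ribosome biogenesis lists was called either. Lists of RNA polymerase I machinery, other snoRNP proteins, other processome and pre-40S factors, other large-subunit factors and the nuclear exosome held 117 genes, of which 116 were in the table and all 116 were kept. The authors' Cuffdiff q called 0 of their 348 tested coding sequences, beside 0.354% of all tested coding sequences, so a count of 0 is close to the background. The authors' deposited table gives 5 of the 348, or 1.44%, a p under 0.05, against 3.31% of all tested coding sequences. Of the 116, 68 were higher and 48 lower, or 58.6% higher, against 57.6% of all kept genes. Their median log2 fold was 0.024, against 0.035 over all kept genes. UBTF, the upstream binding factor of RNA polymerase I, had 36.0 FPKM in BB608 and 31.0 FPKM in DMSO cells. SHQ1, an assembly factor of the H/ACA snoRNP, had 8.08 FPKM in BB608 and 12.2 FPKM in DMSO cells, and PAK1IP1 had 4.75 FPKM in BB608 and 2.60 FPKM in DMSO cells. These were the only 2 of the 116 with gene sums 0.5 log2 or more from 0. PAK1IP1 had a log2 fold of 0.87 with p 0.0478 and q 0.997 in the authors' deposited table (implied SE 0.43).

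The 4 other list members with an unadjusted p under 0.05 were DDX52, DHX37, RRS1 and EIF6. DHX37, a processome helicase, had a log2 fold of 0.23 (implied SE 0.10) for its most abundant coding sequence, and RRS1, which helps place the 5S particle, had 0.22 (implied SE 0.11). For EIF6, which keeps the large subunit from joining too early, 1 of 5 tested coding sequences had 20.4 FPKM in BB608 and 59.9 FPKM in DMSO cells, with p 0.0035 and q 0.477 in the authors' deposited table. Its gene sum had 191.1 FPKM in BB608 and 213.4 FPKM in DMSO cells, a log2 fold of -0.16. A minor coding sequence of DDX52 had 1.68 FPKM in BB608 and 3.27 FPKM in DMSO cells. The most abundant genes of the lists stayed within 0.2 log2: NHP2L1, a shared snoRNP protein, had 425.2 FPKM in BB608 and 445.5 FPKM in DMSO cells, RSL1D1 had 232.8 FPKM in BB608 and 253.3 FPKM in DMSO cells, TAF1D had 174.7 FPKM in BB608 and 158.6 FPKM in DMSO cells, TSR1 had 114.6 FPKM in BB608 and 107.7 FPKM in DMSO cells, and MPHOSPH6, by the mean of both groups, had 50.4 FPKM in BB608 and 49.7 FPKM in DMSO cells.

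MYC itself had 68.5 FPKM in BB608 and 65.3 FPKM in DMSO cells, a log2 fold of 0.07. Its partner MAX had 39.9 FPKM in BB608 and 38.8 FPKM in DMSO cells. The antagonist MXD1 had 5.41 FPKM in BB608 and 7.85 FPKM in DMSO cells, a log2 fold of -0.54, and the repressor MNT had 1.34 FPKM in BB608 and 0.862 FPKM in DMSO cells. In the authors' deposited table the 31 tested coding sequences of this network held none with a p under 0.05. Over all tested coding sequences the share was 3.31%, so a count of 0 is close to the background.

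Enzymes next to ODC1, SRM and CAD were examined next. Of 7 kept polyamine genes 2 were higher and 5 lower in BB608, with a median log2 fold of -0.09. The authors' deposited table gives none of their 25 tested coding sequences a p under 0.05. Against 3.31% of all tested coding sequences, a count of 0 is close to the background. AMD1, which supplies the aminopropyl donor to SRM, had 64.9 FPKM in BB608 and 69.0 FPKM in DMSO cells. SMS, spermine synthase, had 142.6 FPKM in BB608 and 140.4 FPKM in DMSO cells. AZIN1, which protects ornithine decarboxylase from degradation, had 98.1 FPKM in BB608 and 109.9 FPKM in DMSO cells, and OAZ1, the antizyme that promotes it, had 476.5 FPKM in BB608 and 461.2 FPKM in DMSO cells. Their log2 folds were small, at -0.16 and 0.05. SAT1, the acetylating enzyme of polyamine catabolism, had 36.1 FPKM in BB608 and 47.0 FPKM in DMSO cells, a log2 fold of -0.38. SMOX, spermine oxidase, had 1.54 FPKM in BB608 and 3.92 FPKM in DMSO cells. In nucleotide synthesis, 8 of 16 genes were higher and 8 lower, with a median of 0.02. PFAS, of purine synthesis, had p 0.01725 and q 0.997 in the authors' deposited table for its main coding sequence, whose log2 fold was 0.32 (implied SE 0.13). IMPDH1, of guanine nucleotide synthesis, had p 0.0081 and q 0.809 in the authors' deposited table for its main one, with a log2 fold of 0.44 (implied SE 0.15), while its gene sum had 0.05. NME1, the most abundant of this list, had 393.0 FPKM in BB608 and 406.9 FPKM in DMSO cells.

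**Figure D5:**
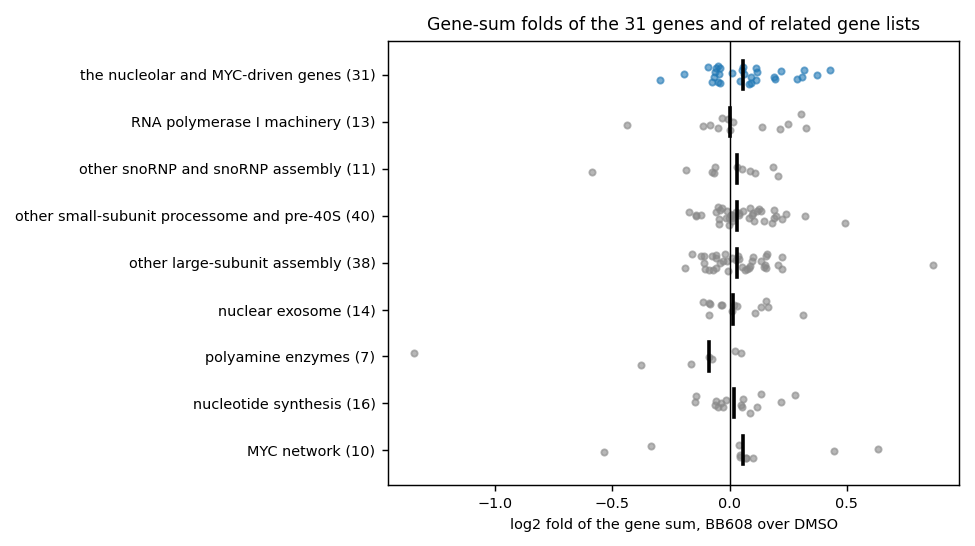
Log2 folds of gene sums, BB608 over DMSO, for the 31 members and for kept genes of each related list (number in brackets); points are genes, spread vertically only to be seen, and black bars are medians. Medians run from -0.09 for polyamine enzymes to 0.06 for the members and for the MYC network.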

How the data were processed

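Per the submitters' processing notes, reads were processed with TopHat2 2.0.11, Cufflinks 2.2.1 and Cuffdiff on hg19, with no gene annotation named. The authors deposited 1 table with 82428 coding sequences and FPKM values that Cuffdiff pooled within BB608 and within DMSO. It also holds the authors' test statistic, a score, and their p-value and q-value. The smallest deposited p-value is 5e-05, with a q-value of 0.0154. The deposited q-values matched a Benjamini-Hochberg adjustment over tested rows to within 5.23e-07.

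Log2 folds were computed from the deposited FPKM values without a pseudocount. The normal quantile of p over the absolute statistic had a median of 1.73 (quartiles 1.64 and 1.78; 32757 rows), and the implied SE is the fold over the product of statistic and median, given where both groups exceed 0.001 FPKM. It covers only the spread in the authors' model. A kept gene had a tested sequence, none of failed status, 1 name and at least 1 FPKM. Functions were tested on simulated data. Python 3.11.15, pandas 2.3.3, numpy 2.4.6 and scipy 1.17.1 were used.

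The planned limma fit needs values per library and was replaced by the authors' test. Members and lists were chosen with earlier results of these data known. Every member is named. Of a member's coding sequences, the most abundant and those with a p under 0.05 were to be named; of list genes, those with a p or q under 0.05, MYC and the most abundant per list. Other genes and sequences named here were chosen after their values were seen. EMG1 was not analysed here.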

Additional observations from a re-analysis of the deposited data

How the results depend on the processing

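No member and none of the 151 genes of all related lists was called by Cuffdiff's q. Both counts stayed at 0 after a new adjustment over sequences of mean abundance at or above 1 or 5 FPKM. They also stayed at 0 over the most abundant coding sequence per gene, and with normal p-values from the statistic, the last chosen after seeing the data. A bound of 1 log2 on the fold can only remove calls, so its count of 0 was fixed in advance. The number of members with a higher gene sum was 19, and ran from 12 of 20 without members whose locus range holds other gene names and 16 of 28 without those that share a locus identifier, both chosen after seeing the data and with fewer members by construction, to 24 of 31 by the most abundant coding sequence. The median log2 fold of the members, 0.06, ran from 0.02 after subtracting the median of all kept genes, 0.03, to 0.08 by the most abundant coding sequence. For the other ribosome biogenesis genes the median of 0.02 became -0.011 after that subtraction, by its own construction. Of 124 settings over single members, 118 moved a log2 fold by less than 1 implied SE and 6 by more. All 6 were by the most abundant coding sequence, and 8 settings changed sign, 7 of them in that way. Subtracting the median shifts each fold by 0.03, below the lowest implied SE of 0.09, so it could not move any by 1 SE. Leaving out untested sequences or adding a pseudocount of 1 changes sums of at least 11.1 FPKM little by construction. The count of 118 is therefore no measure of stability. No paired analysis was possible because replicate values were pooled within each group before deposit, and leaving out each replicate was not run for the same reason.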
